A study of Homo sapiens with 5 samples.

Results

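Immediate early genes are transcribed within minutes of a growth signal, without new protein synthesis, and their mRNAs are short-lived. Several encode transcription factors, and others encode proteins that switch the signal off again, by removing phosphate from MAP kinases or by promoting the decay of mRNAs. MCF10A cells are grown with EGF and horse serum in their medium. Whether either drives the expression of such genes here was not tested, since all libraries had the same medium. The 10 genes described here were chosen by name as immediate early or growth factor response genes, by a rule that sets no threshold on a measured value. They are EGR1, IER2, IER3, IER5, IER5L, DUSP1, DUSP5, DUSP6, MCL1 and ZFP36. They were 10 of 56632 genes in the tables, and all 10 were among the 11764 analysed genes, meaning that their FPKM averaged 1 or more across the 5 libraries. The list was drawn up with earlier results of these data known. Its shares beside those of all genes are therefore descriptive.

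MCF10A is an established, non-tumorigenic line of human mammary epithelial cells. RIPseq recovers a protein with an antibody, sequences the RNA that comes down with it, and compares that RNA with the input. One input and 1 FLAG-CBFB RIP came from MCF10A cells that stably expressed FLAG-tagged CBFB, the partner subunit of RUNX proteins, and the anti-FLAG antibody was used for the RIP. One input and 2 hnRNPK RIP repeats came from parental MCF10A cells, where hnRNPK binds RNA, with a preference for stretches of C. All cells were at passages below 20 and in the same medium. It held 20 ng/ml EGF, 5% horse serum, 10 µg/ml insulin, 500 ng/ml hydrocortisone and 100 ng/ml cholera toxin. No drug treatment or timed growth factor pulse is described for any of these groups. The labels do not say whether the FLAG-CBFB cells also made CBFB of their own. For its FLAG pulldown the study describes CBFB knockout MCF10A cells that stably expressed FLAG-tagged CBFB, after blasticidin selection. It does not say whether these cells were used for RIPseq. No mock immunoprecipitation was analysed here, so what the beads or an unrelated antibody would recover is not known. Nothing in the labels says whether the 2 hnRNPK repeats came from separate cultures, and their p-values then measure only the spread between these libraries.

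The libraries held 69786576 to 106855647 expected counts. The 37 mitochondrial genes took 4.27% and 11.2% of the counts in the inputs and 62.2% to 86.6% in the RIPs, and raw FPKM of most nuclear mRNAs was lower in a RIP. Enrichment is therefore given as the log2(FPKM + 1) difference between a RIP and the input of the same cells, centred on the mean over the analysed genes. The centring added 1.34 for CBFB and 2.61 and 2.68 for the hnRNPK repeats. An enrichment above 2, that is 4-fold over the average gene, is called enriched. The cells expressed the basal epithelial markers KRT5, KRT17, TP63, EGFR and CDH1, with KRT14 low at 6.78 and 1.81 FPKM in the inputs. Of 10 listed markers of other cell types, CD14 was the only one that reached the analysed set.

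EGR1 and ZFP36 were enriched in both RIPs, and no other member was enriched in either. Among the members, 2 of 10 were above 2 in the CBFB RIP, where 4.37% of all analysed genes were, and 2 of 10 were above 2 in the hnRNPK RIP, where 8.2% of all genes were. The same 2 genes were above 2 in both, against 3.79% of all genes. The members' median enrichment was -0.16 for CBFB and -1.11 for hnRNPK, and that of all analysed genes was -0.19 and -0.11. Most of the hnRNPK gap depended on the scale, since with log2 CPM and TMM factors the 2 medians were -0.83 and -0.60. EGR1 encodes a zinc-finger transcription factor and ZFP36 encodes tristetraprolin, which binds AU-rich elements and promotes mRNA decay. The 8 others encode MAP kinase phosphatases (DUSP1, DUSP5 and DUSP6), the survival protein MCL1, and 4 products of the IER genes.

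**Figure D1:**
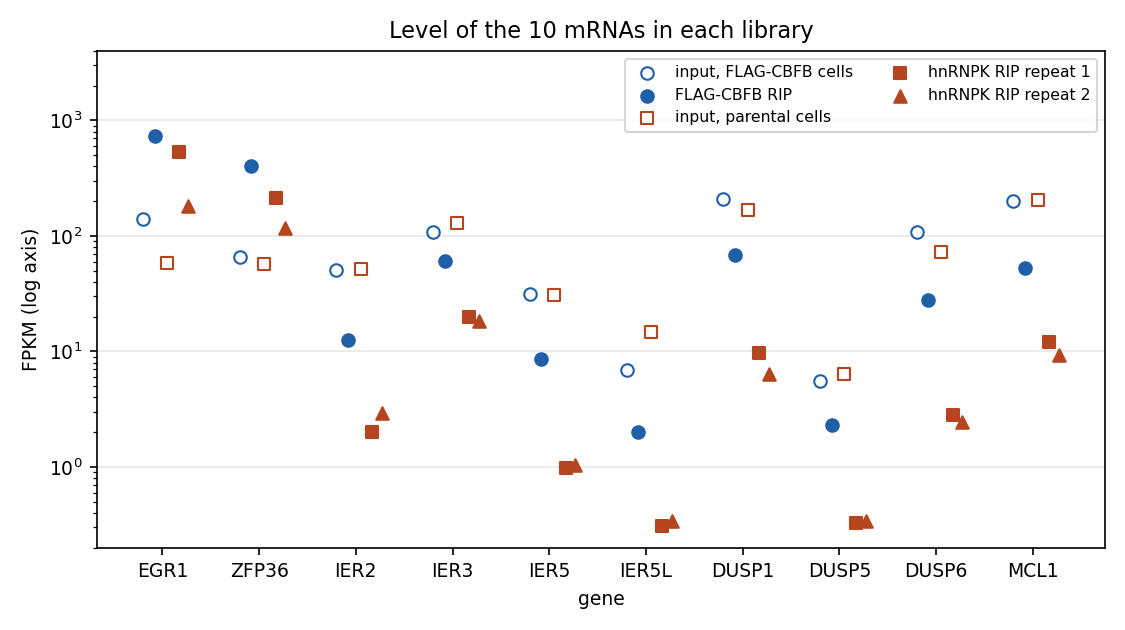
FPKM of the 10 mRNAs in each of the 5 libraries, on a log axis. Open symbols are inputs and filled symbols RIPs, with circles for FLAG-CBFB cells, and squares and triangles for parental cells. EGR1 and ZFP36 are the 2 genes whose RIP values lie above both inputs.

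The sequences below are the most C-rich stretch of 25 bases in the mRNAs of 4 members. Where stretches tied, the one nearest the start of the mRNA is shown. With overlaps, 5 stretches tied in EGR1, 3 in ZFP36 and 2 in IER5L. The sequences are shown for the preference of hnRNPK for C, and because they place the enriched members beside members that were not enriched. Capitals mark runs of 3 or more C. The mRNAs are those of GENCODE 29 on GRCh38 and are written in DNA letters, 5′ to 3′ on the strand of the mRNA. EGR1 and ZFP36 were enriched in both RIPs. IER5L had the most C in such a stretch among the members and was enriched in neither, and DUSP1 had the least.
EGR1: gCCCCgggctgcaCCCCCCCgCCCC
ZFP36: cgCCCtccagctCCCCaccaccacc
IER5L: cctCCCCggCCCCCgcctcctCCCC
DUSP1: CCCCgtctccatCCCtgtccactcc

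The EGR1 stretch lies in the 5′ UTR at chr5:138465707-138465731 on the plus strand and holds 17 C. That of ZFP36 lies in the coding sequence at chr19:39408359-39408383 on the plus strand and also holds 17 C. The IER5L stretch is coding, at chr9:129177355-129177379 on the minus strand, with 19 C. The DUSP1 stretch is coding too, at chr5:172768819-172768843 on the minus strand, with 15 C. A stretch with 17 or more C was found in 30.6% of the 10462 coding genes compared, one with 19 or more in 6.53%, and one with 15 or more in 66.0%. IER3 and DUSP5 also had 17 C, and IER2, IER5, DUSP6 and MCL1 had 16. The best single stretch therefore did not separate the 2 enriched mRNAs from the others.

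EGR1 is annotated at chr5:138465490-138469315 on the plus strand. FLAG-CBFB cells had an EGR1 FPKM of 141 in the input and 725 in the RIP. In parental cells it was 58.1 in the input, and 537 and 181 in hnRNPK repeats 1 and 2. All 3 RIP values thus lay above both inputs, before any centring. Ranked by FPKM among the genes outside the mitochondrial genome, EGR1 moved from rank 632 to rank 54 in the CBFB RIP, and from rank 1860 to ranks 14 and 60 in the hnRNPK RIPs. The centred enrichment was 3.69 for CBFB and 5.05 ± 1.06 for hnRNPK (SD, n = 2), with repeats at 5.80 and 4.30. That placed it at percentile 98.9 of all analysed genes for CBFB and 99.6 for hnRNPK.

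ZFP36, at chr19:39406813-39409412 on the plus strand, behaved much like EGR1. Its FPKM was 66.2 in the input and 405 in the RIP of FLAG-CBFB cells. In parental cells it was 56.7 in the input and 212 and 117 in the hnRNPK repeats. The 3 RIP values were again above both inputs, and the inputs were closer to each other than those of EGR1. The enrichment was 3.93 for CBFB and 4.10 ± 0.55 for hnRNPK (SD, n = 2), with repeats at 4.49 and 3.71. Its percentile was 99.1 for CBFB and 98.5 for hnRNPK.

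CPM computed outside the mitochondrial genes gave larger folds for both mRNAs. On this scale EGR1 went from 437 to 5696 in FLAG-CBFB cells, which is 13-fold, and from 195 to 10296 and 4006 in parental cells, which is 52.9-fold and 20.6-fold. ZFP36 went from 102 to 1663, or 16.4-fold, and from 97.7 to 2128 and 1339, or 21.8-fold and 13.7-fold. Between 6055 and 195744 expected counts stood behind each of these values, so counting error was small beside the difference between the hnRNPK repeats. All of these folds are relative to the other nuclear RNA of the same library, since the amount of RNA recovered per cell was not measured.

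**Figure D2:**
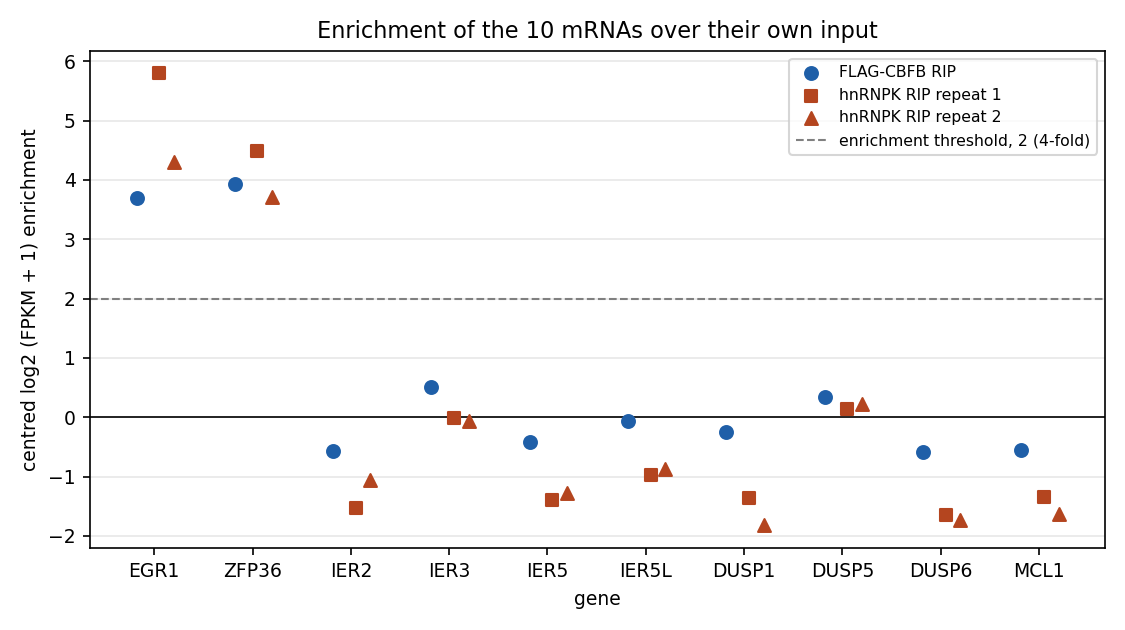
Centred log2 (FPKM + 1) enrichment of each member over its own input, for FLAG-CBFB (circles) and hnRNPK repeats 1 (squares) and 2 (triangles). The dashed line is the threshold of 2. EGR1 and ZFP36 lie between 3.69 and 5.80, and the other 8 members lie between -1.82 and 0.51.

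On the main FPKM scale, the phosphatase mRNAs DUSP1 and DUSP6 were below the average gene in both RIPs. The third, DUSP5, was above it for CBFB. Of the 11764 analysed genes, 7635 were below the average for CBFB and 6256 for hnRNPK. DUSP1, which dephosphorylates nuclear MAP kinases, had an FPKM of 211 in the input and 69.0 in the RIP of FLAG-CBFB cells, while parental cells had 167 in the input and 9.70 and 6.44 in the hnRNPK repeats. DUSP6, the cytoplasmic phosphatase for ERK, had 109 and 27.9 FPKM in the input and RIP of FLAG-CBFB cells, and 72.1, then 2.82 and 2.43, in the parental input and hnRNPK RIPs. Both mRNAs were thus lower in every RIP than in either input. Against their own input, 7.0% of all analysed genes had a higher FPKM in the CBFB RIP, and 4.27% in both hnRNPK RIPs. DUSP5, a nuclear ERK phosphatase, was the least abundant member, at 5.60 and 2.29 FPKM in FLAG-CBFB cells, and at 6.38, 0.33 and 0.34 in parental cells. Their CBFB enrichments were -0.26 for DUSP1, -0.58 for DUSP6 and 0.34 for DUSP5. For hnRNPK they were -1.59 ± 0.32, -1.69 ± 0.06 and 0.18 ± 0.06 (SD, n = 2 each). The CBFB value of DUSP5 stayed above 0 with a pseudocount of 0.1 (0.31) and with log2 CPM and TMM factors (0.41), but its hnRNPK value did not, at -0.46 and -0.75. With no filter on low genes its values were -0.69 for CBFB and -1.86 for hnRNPK. In CPM outside the mitochondrial genes, DUSP5 was at 1.04-fold of its input in the CBFB RIP, and at 0.30-fold and 0.35-fold of its input in the hnRNPK repeats, close to the 0.33-fold and 0.25-fold of DUSP1.

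Of the IER genes, IER3 differed from the rest. IER3, a short protein linked to cell survival, had 107 FPKM in the input and 60.2 in the RIP of FLAG-CBFB cells, while parental cells had 129 in the input with 20.1 and 18.3 in the hnRNPK repeats. Its enrichment was 0.51 for CBFB and -0.04 ± 0.04 for hnRNPK (SD, n = 2), the highest of the 8 members for CBFB. IER2, a nuclear protein induced by growth factors, had 50.3 and 12.6 FPKM in FLAG-CBFB cells, while parental cells had 51.9 in the input against 2.01 and 2.96 in the hnRNPK repeats. IER2 was therefore at -0.57 for CBFB and -1.29 ± 0.33 for hnRNPK. IER5 had 31.5 and 8.66 FPKM in FLAG-CBFB cells, and 30.9, 0.99 and 1.05 in parental cells. IER5L, its paralog, had 6.90 and 2.0, and 14.8, 0.31 and 0.34. All 4 IER mRNAs were lower in each RIP than in its input on this scale. Most genes were, since 7.0% of all analysed genes were higher in the CBFB RIP and 4.27% in both hnRNPK RIPs. In CPM outside the mitochondrial genes, IER3 was at 1.43-fold of its input in the CBFB RIP. In the hnRNPK repeats IER3 was at 0.88-fold and 0.93-fold on that scale. The enrichments were -0.41 and -1.34 ± 0.08 for IER5, and -0.06 and -0.93 ± 0.07 for IER5L. The order of these 2 for hnRNPK depended on the scale, since IER5L was weak in the RIPs. With a pseudocount of 0.1 IER5L was at -1.69 and IER5 at -1.35. With log2 CPM and TMM factors they were at -2.02 and -1.44.

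MCL1, a short-lived member of the BCL2 family that protects cells from apoptosis, was the most abundant member in the inputs together with DUSP1. Its FPKM was 200 in the input and 52.8 in the RIP of FLAG-CBFB cells, while parental cells had 204 in the input against 12.2 and 9.33 in the hnRNPK repeats. The enrichment was -0.56 for CBFB and -1.49 ± 0.20 for hnRNPK (SD, n = 2). It thus stood at percentile 20.8 of all analysed genes for CBFB and 14.3 for hnRNPK.

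The inputs of the enriched members lay within the range of the others. By FPKM in the 2 inputs, the order from high to low was MCL1, DUSP1, IER3, EGR1, DUSP6, ZFP36, IER2, IER5, IER5L and DUSP5. The inputs of MCL1 and DUSP1 overlapped in range, as did those of IER3 and EGR1, and of EGR1 and DUSP6. In the parental input EGR1 (58.1) and ZFP36 (56.7) lay just above IER2 (51.9). In the hnRNPK RIPs EGR1 and ZFP36 were at 117 FPKM or more and IER2 at 2.96 or less. Of the 10 members, 2 had a higher FPKM in the CBFB RIP than in its input, as did 7.0% of all analysed genes, and 2 had a higher FPKM in both hnRNPK RIPs, as did 4.27% of all genes.

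**Figure D3:**
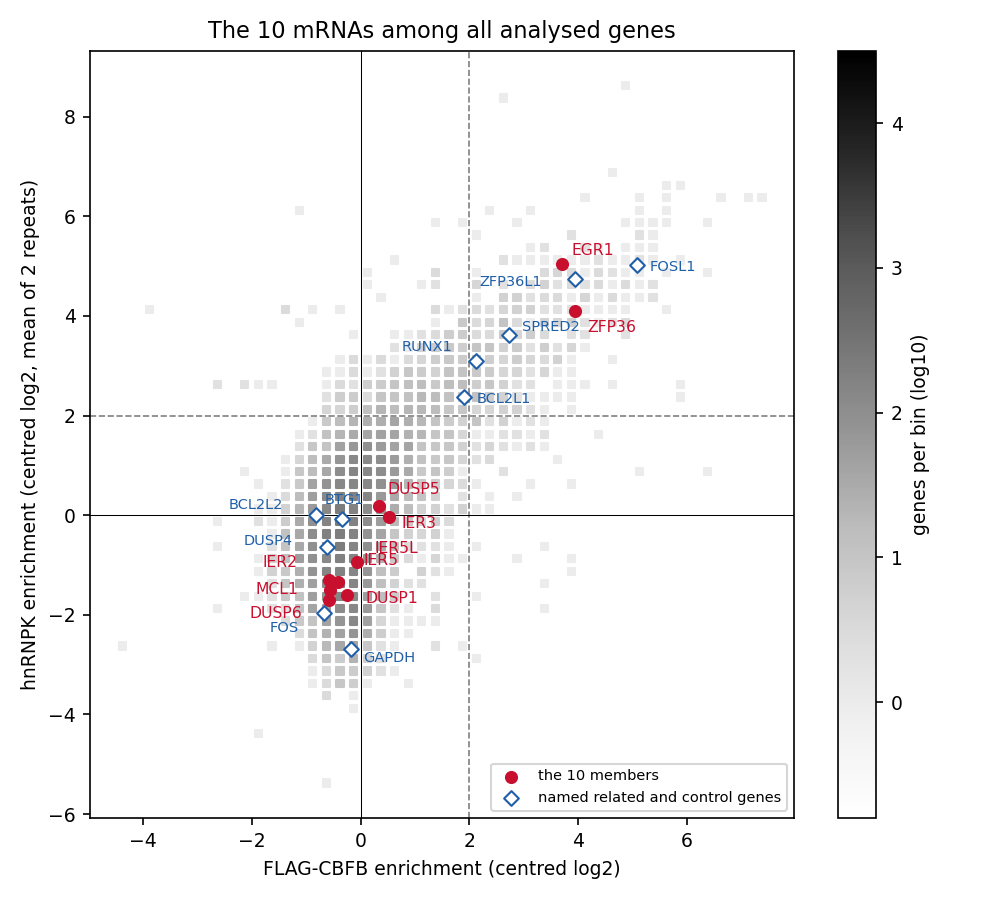
CBFB enrichment against mean hnRNPK enrichment, both centred log2. Grey squares count the 11764 analysed genes in bins, red points are the 10 members, blue diamonds are 10 related or control genes, and dashed lines mark the threshold of 2. EGR1 (3.69, 5.05) and ZFP36 (3.93, 4.10) lie in the upper right corner, and the 8 others lie in the dense part of the plot or below it.

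The hnRNPK comparison could be tested on counts, with 2 RIP libraries against 1 input. By edgeR's quasi-likelihood test with Benjamini-Hochberg adjustment over 16639 genes, EGR1 was higher in the RIP by a log2 fold change of 6.37 (SE 0.44, adjusted p = 4.88e-44). ZFP36 was higher by 5.32 (SE 0.43, adjusted p = 1.32e-32). IER3 also passed as higher, by 1.02 (SE 0.36, adjusted p = 0.0160). The fit has 1 residual degree of freedom per gene, moderated over all genes, and the lone input is assumed to vary like the RIP repeats. With both inputs as 1 group, which counts the spread between inputs, EGR1 was higher by 5.48 (edgeR adjusted p = 0.00025) and ZFP36 by 5.11 (edgeR adjusted p = 2.82e-05). The test of the parental libraries called 3 of 10 members higher, whereas 21.9% of all genes tested were called higher. As lower, 3 members passed, IER5L at -1.72 (SE 0.40, adjusted p = 9.39e-05), IER5 at -1.14 (SE 0.36, adjusted p = 0.00512) and DUSP6 at -0.87 (SE 0.35, adjusted p = 0.0341). That made 3 of 10 members lower, with 15.8% of all genes tested called lower. IER2, DUSP1, DUSP5 and MCL1 did not pass, with log2 fold changes from -0.61 to -0.37 and adjusted p-values from 0.151 to 0.452. The members' median log2 fold change was -0.53, and that of all genes tested was -0.12.

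The calls of IER3, IER5, IER5L and DUSP6 were lost when either hnRNPK repeat was left out, with both inputs as 1 group. Such a fit keeps 1 hnRNPK RIP and takes its spread from both inputs alone. Among all genes tested, fewer were called in either direction too. Without repeat 1 and without repeat 2, the log2 fold changes were 1.01 and 1.04 for IER3, and -1.19 and -1.38 for IER5. They were -1.31 and -1.51 for IER5L, and -1.53 and -1.38 for DUSP6. IER5L also lost its call without the parental input, at -0.70. EGR1 and ZFP36 kept theirs in each of these fits, with log2 fold changes from 4.58 to 6.27 and from 4.68 to 5.44. The IER3 enrichment of -0.04 on the main FPKM scale was 0.70 with a pseudocount of 0.1, 0.76 with FPKM rescaled to the counts outside the mitochondrial genes, and 0.73 with log2 CPM and TMM factors.

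For CBFB, which had 1 RIP library, a fit with both inputs as 1 group and all 5 libraries gave 2 residual degrees of freedom. It assumed that the lone RIP varied like the other groups, although the 2 inputs came from different cells. ZFP36 was higher by a log2 fold change of 4.52 (SE 0.40, edgeR adjusted p = 0.000246) and EGR1 by 4.62 (SE 0.64, edgeR adjusted p = 0.00251). Thus 2 of 10 members were called higher, where 4.76% of 17882 genes were. No member was called lower by edgeR, nor by DESeq2, and 0.028% of all genes were, while 2 members had an unadjusted p under 0.05, both of them higher. The 8 others ranged from -0.70 for IER5L to 0.77 for IER3, with adjusted p-values from 0.504 up.

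The 2 hnRNPK repeats differed in EGR1 more than in most genes. Repeat 1 exceeded repeat 2 by 1.49 (log2, centred) for EGR1 and by 0.78 for ZFP36. Over all analysed genes the SD of this difference was 0.35, and 0.561% of genes exceeded 1. The other members differed by -0.47 (IER2) to 0.45 (DUSP1). Of the 15 related transcription factors analysed, 11 were higher in repeat 1, while 5846 of all 11764 analysed genes were. The median difference was 0.25 for these transcription factors and -0.0016 for all analysed genes. Among the transcription factors, EGR3 (1.72), FOSB (1.36) and ATF3 (0.95) were at the top. FOS (-0.16), FOSL1 (-0.20) and JUN (-0.23) were among those lower. The repeats shared 1 input, so how far the cells behind each repeat differed in these mRNAs was not tested.

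EGR1 also differed most between the 2 inputs, which had no immunoprecipitation. Its input log2 level was 1.30 higher in FLAG-CBFB cells than in parental cells, centred the same way. IER5L followed at -0.97 and DUSP6 at 0.61, and the 7 others lay between -0.23 and 0.36. One of the 10 members differed by more than 1 in either direction, and 9.57% of all analysed genes did. Each input is a single library, so this difference has no replicate check. Against the opposite input, EGR1 kept values of 4.99 (CBFB) and 3.75 (hnRNPK), and ZFP36 of 4.18 and 3.85, all above the threshold.

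Related genes gave a similar split within families. Of 19 listed immediate early transcription factors, 15 were analysed, and 2 were above 2 for CBFB, 3 for hnRNPK and 2 for both. FOSL1, an AP-1 subunit of the FOS family, had the highest enrichment, 5.09 for CBFB and 5.02 ± 0.14 for hnRNPK (SD, n = 2). By the mean of both RIPs FOS itself had the lowest, -0.67 and -1.97 ± 0.11. EGR3, a paralog of EGR1, was the other transcription factor above 2 in both, at 2.67 and 4.66 ± 1.22, and it was scarce in parental cells, with 0.66 FPKM in the input. EGR2 fell below the expression minimum, with 70 counts in the parental input. By edgeR it was higher in the hnRNPK RIP by a log2 fold change of 4.06 (SE 0.58, adjusted p = 4.85e-11). It was not called higher in the CBFB RIP.

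Among regulators of signalling, 11 of 12 were analysed, and 1 was above 2 for CBFB and 2 for hnRNPK. SPRED2, an inhibitor of the RAS to ERK pathway, was the highest at 2.73 and 3.62 ± 0.22, and by the mean of both RIPs the phosphatase DUSP4 was the lowest, at -0.61 and -0.64 ± 0.09. SPRY4, another inhibitor of this pathway, was the second gene above 2 for hnRNPK, at 2.69 ± 0.09. None of the phosphatases DUSP2, DUSP4, DUSP7 and DUSP10 was above 2, as was the case for the 3 among the members. Most analysed genes were not above 2 either, since 4.37% were for CBFB and 8.2% for hnRNPK. By edgeR, DUSP7 and DUSP8 had log2 fold changes of 1.72 and 2.06 in the hnRNPK RIP. Those of DUSP2, DUSP4 and DUSP10 were -0.34, -0.45 and 0.07. The edgeR test called 7 of the 12 higher and 0 lower for hnRNPK.

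The tristetraprolin family showed a graded picture. ZFP36L1, a paralog of ZFP36 that also binds AU-rich elements, was at 3.94 for CBFB and 4.74 ± 0.18 for hnRNPK (SD, n = 2). ZFP36L2, the third paralog, was at 0.90 and 1.22 ± 0.20, below the threshold and below both of the others in each hnRNPK repeat. BTG1, an antiproliferative protein from the same list of 4 genes, was the lowest at -0.35 and -0.07 ± 0.20. In the BCL2 family, 7 of 9 genes were analysed, with 0 above 2 for CBFB and 1 for hnRNPK. That one was BCL2L1, the antiapoptotic relative of MCL1, at 1.91 and 2.37 ± 0.16, and by the mean of both RIPs BCL2L2 was the lowest, at -0.82 and 0.01 ± 0.17.

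By edgeR, 8 of 18 transcription factors tested, 3 of 4 RNA decay and growth arrest genes and 3 of 8 BCL2 family genes were higher in the hnRNPK RIP, and 2 transcription factors, FOS and JUN, were lower. These shares stand beside 21.9% of all genes called higher and 15.8% called lower. For CBFB, 2 transcription factors, 2 signalling regulators, 1 decay gene and 2 BCL2 family genes were higher, with 4.76% of all genes called higher, and none of these lists had a lower gene. RUNX1 and GAPDH, which the study used as a bound and an unbound transcript, were at 2.13 and -0.18 for CBFB and at 3.09 ± 0.28 and -2.69 ± 0.04 for hnRNPK. EGR1 and ZFP36 were thus above RUNX1 in both RIPs. For CBFB, IER2, IER5, DUSP1, DUSP6 and MCL1 lay below GAPDH. All 10 members were above GAPDH for hnRNPK on the FPKM scale, but by edgeR IER5L (-1.72) was below GAPDH (-1.58). For hnRNPK, DUSP6, DUSP1, MCL1, IER5 and IER2 stood at percentiles 10.8 to 18.4 of all analysed genes. The 3 genes nearest to the members' median in both enrichments and in input FPKM were SPAG7, CDK2AP1 and PSME3IP1, at distances of 0.06 to 0.12 over these 3 values.

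**Figure D4:**
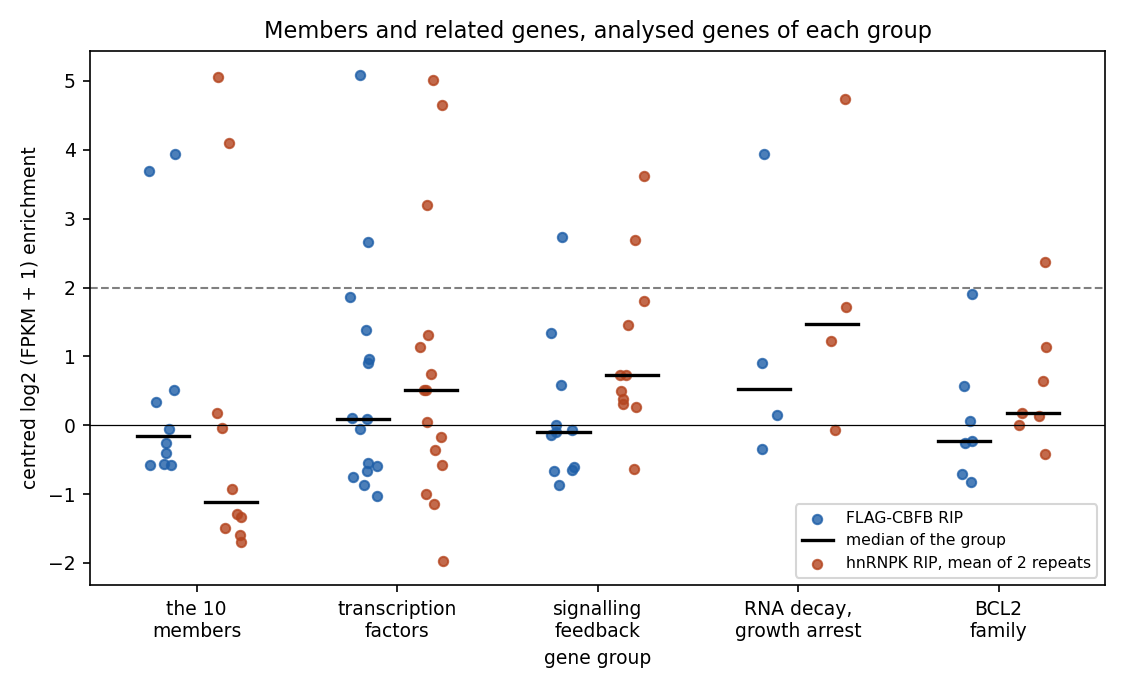
Centred log2 (FPKM + 1) enrichment of the analysed genes of each group, for FLAG-CBFB (blue) and hnRNPK (brown, mean of 2 repeats). Each point is a gene, spread sideways only for visibility, black bars are group medians and the dashed line is the threshold of 2. The members' hnRNPK median (-1.11) is the lowest of the 5 groups on this scale, while EGR1 lies with the highest related genes.

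The mRNAs of the members were also described by base composition, which the choice of genes did not use. One annotated mRNA per gene was taken from GENCODE 29, and CCCC was counted on the mRNA strand with overlaps. This motif occurs in 97.7% of all 10462 coding mRNAs compared. The median mRNA had 24% C and 4.51 CCCC per kb, and the 335 coding genes above 2 in both RIPs had medians of 32.6% and 15.0 per kb. EGR1 had 32.0% C and 14 CCCC per kb, and ZFP36 had 33.9% and 19.6. Over the whole mRNA they had the highest CCCC density of the 10 members. In the 3′ UTR they did not reach the medians of the enriched genes, which were 30.2% C and 14.8 CCCC per kb. EGR1 had 18% and 3.24 there, and ZFP36 had 22.4% and 11.2.

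Of the members that were not enriched, IER5L alone matched EGR1 and ZFP36 in C content, and none matched them in CCCC per kb of the whole mRNA. IER5L had 34.0% C and 12.5 CCCC per kb, IER3 had 30.3% and 12.1, and IER2 had 29.5% and 11.0. DUSP1 and DUSP5 had 28.2% and 27.7% C, with 4.95 and 3.13 CCCC per kb. At the other end, MCL1 had 20.5% C and 3.81 CCCC per kb, and IER5 and DUSP6 had 22.5% and 23.0% C. ZFP36 had the highest CCCC density in the coding sequence, 26.0 per kb, followed by IER3 (21.2), IER5 (19.3), EGR1 (16.5) and IER5L (16.5). C content did not separate EGR1 and ZFP36 from IER5L, nor coding CCCC density EGR1 from IER3 and IER5.

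Over all coding genes the relation with C was visible but loose. Of the 2093 genes with the most C, 12.4% were above 2 in both RIPs, and these included EGR1, ZFP36, IER3 and IER5L. Of the 2093 with the least C, 0.0956% were. Spearman's rho across the 10462 genes between CCCC per kb and enrichment was 0.22 for CBFB and 0.25 for hnRNPK. Other features had values of similar or larger size. For mRNA length rho was -0.31 for CBFB and 0.31 for hnRNPK, and for the number of exons it was -0.31 and 0.02. These are descriptions across genes measured in the same libraries, which are not independent replicates. Among the paralogs, ZFP36L1 had 17.2 and ZFP36L2 10.0 CCCC per kb, and FOSL1 had 19.2 and FOS 5.56. EGR3 had 20.8. JUND, with 33.3 per kb, was at 0.90 for CBFB and 0.05 ± 0.23 for hnRNPK.

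**Figure D5:**
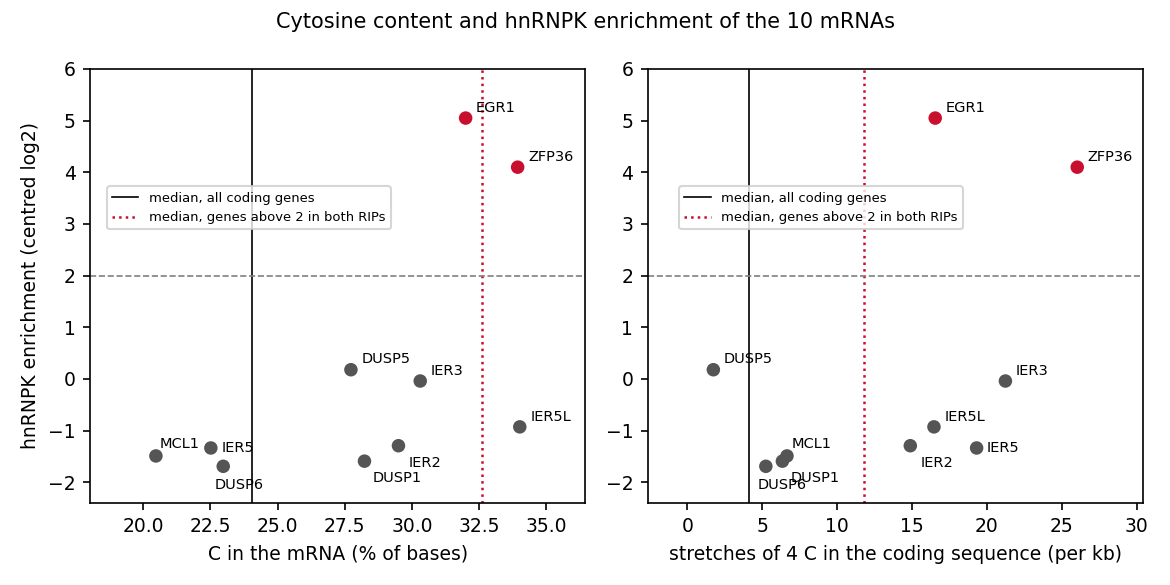
Mean hnRNPK enrichment of the 10 members against the percentage of C in the mRNA (left) and CCCC per kb of coding sequence (right). Red points are EGR1 and ZFP36, grey points the other members, the solid line is the median of all coding genes, the dotted line the median of genes above 2 in both RIPs, and the dashed line the threshold of 2. On the left, IER5L (34.0% C) lies as far right as the enriched members but below 0. On the right, IER3 (21.2 per kb) lies between EGR1 and ZFP36 and just below 0, at -0.04 on this scale.

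The members had few exons. Their annotated mRNAs had 1 to 4 exons with a median of 2, against a median of 9 over all coding genes, and a median length of 2634 bases against 2871. Their 3′ UTRs had a median of 1176 bases against 882.5, and the mRNAs of EGR1, MCL1, IER5 and DUSP6 were longer than the median of all genes. AU-rich elements were counted as ATTTA on the mRNA strand of the 3′ UTR, with overlaps, and 65.9% of all 3′ UTRs compared hold at least 1. IER5 and MCL1 held 10 each, IER3 held 6, ZFP36 5, DUSP1 4, IER5L 3, EGR1 and DUSP6 1 each, and IER2 and DUSP5 held none. EGR1 and ZFP36 therefore did not share a high ATTTA count. The annotated mRNAs of IER5 (4188 bases) and DUSP6 (4400 bases) are longer than the mean lengths used in the tables (2340 and 2343 bases in the inputs), so their composition may not be that of the transcripts counted.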

How the data were processed

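RIPseq was carried out in MCF10A cells, in 5 libraries assigned to groups by their titles. The labels describe Trizol extraction, an RNeasy column and TruSeq mRNA libraries. Trimmomatic, STAR, RSEM and the build hg19 are named in the submitters' processing notes, and versions are not given in the sources used here. The authors deposited RSEM's expected counts, estimates per gene that can hold fractions. The deposited FPKM values divide them by effective length and library total, and the deposited TPM values, which were not used for results, rescale them to a fixed sum. Reads shared between near-identical genes are split by RSEM, and no strand setting was stated.

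The tables hold Ensembl gene identifiers, 50276 of 56632 of which were named through the gene name table and GENCODE 29. Coordinates and sequences are those of GENCODE 29 on GRCh38, not of the files' build, and were taken for 1 coding transcript per gene, by APPRIS tier and then by the length nearest to the tables' mean length.

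Enrichment was the difference in log2(FPKM + 1) between a RIP and the input of the same cells, centred on the mean over genes whose FPKM averaged 1 or more. This scale understates the change of weak genes. Enriched means above 2, after the study's 4-fold threshold, but how the study adjusted FPKM before applying it is not stated, and centring is one reading. Without centring 187 genes, in place of 514, were above 2 for CBFB. For hnRNPK the mean of 2 repeats was used, and the repeats differed beyond sampling noise (chi-square per degree of freedom 71.2). Expected counts were rounded and tested with edgeR 4.0.16 (quasi-likelihood, TMM, filterByExpr) and, as an alternative, DESeq2 1.42.0 in R 4.3.3, at an adjusted p of 0.05 over all genes tested. The edgeR test and the enrichment calculation were also run on simulated data with known changes, and DESeq2 was not. Totals of 69786576 to 106855647 counts per library make counting error small beside the spread between repeats, and it does not cover variation between cultures.

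All 10 members are named. In each related list the genes with the highest and lowest mean of both enrichments are named, with RUNX1, GAPDH and the 3 nearest genes. EGR2, EGR3, FOSB, FOSL1, ATF3, JUN, JUND, SPRY4, ZFP36L2 and the DUSP genes of the signalling list are named beyond this, after their values were seen, as are genes whose RIPs had opposite signs. The members and lists were chosen with earlier results of these data known. Alternatives were another pseudocount, other centring, other gene filters, the opposite input, other scalings, each repeat alone and a 2-fold threshold. Leaving out single libraries from the fit with both inputs was added after seeing the data.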

Additional observations from a re-analysis of the deposited data

Results flagged for a closer look

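IER3 was the only one of the 10 members whose CBFB enrichment had one sign (0.51) and whose hnRNPK repeats both had the other (-0.01 and -0.07). Its CBFB enrichment exceeded its mean hnRNPK enrichment by 0.56 on the log2 scale. The difference between the RIPs was not tested, since the CBFB RIP is a single library. It shrank under other settings, with CBFB and hnRNPK enrichments of 0.73 and 0.70 with a pseudocount of 0.1, 0.74 and 0.76 with FPKM rescaled to the counts outside the mitochondrial genes, and 0.87 and 0.73 with log2 CPM and TMM factors. On the count scale IER3 was positive in both comparisons, at 0.77 for CBFB and 1.02 for hnRNPK by edgeR.

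Some of the related and marker genes analysed also had opposite signs in the CBFB RIP and in both hnRNPK repeats, and these differences were not tested either. The CBFB enrichment minus the mean hnRNPK enrichment was -0.57 for the transcription factor gene MAFF. Among the signalling feedback genes it was -0.84 for DUSP2, -0.86 for DUSP7, -1.03 for DUSP10, -1.52 for SPRY1 and -0.96 for SPRED1. Among the BCL2 family genes it was -0.39 for BBC3 and -1.84 for BCL2L11. Of the marker genes, the epithelial TP63 (-2.43) and EGFR (-2.29) were lower for CBFB, and CD14, a marker of monocytes, was higher by 1.15. For 2 weak genes the direction depended on the scale. In CPM outside the mitochondrial genes, DUSP2 was at 0.56-fold of its input for CBFB, and at 0.34-fold and 0.36-fold for hnRNPK. BBC3 was at 0.64-fold, and at 0.39-fold and 0.33-fold. The other genes named here kept their direction on that scale, DUSP10 narrowly, at 0.43-fold against 0.49-fold and 0.44-fold.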

How the results depend on the processing

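EGR1 and ZFP36 were above 2 in both RIPs in the main calculation and under a pseudocount of 0.1, centring on the median, no gene filter, a filter of mean FPKM 5, the opposite input, rescaling to the counts outside the mitochondrial genes, and log2 CPM with TMM or DESeq2 size factors. Without centring, 1 member was above 2 for hnRNPK, since ZFP36 was at 1.46, and 89 of all analysed genes were. With the arithmetic means of FPKM made equal, 0 members were above 2 for either RIP. Of all analysed genes, 94 were above 2 for CBFB and 37 for hnRNPK there, in place of 514 and 965 in the main calculation. A 2-fold threshold and each hnRNPK repeat alone left 2 members. The members' median CBFB enrichment was -0.11 with a pseudocount of 0.1, -1.50 without centring, 0.033 with median centring, -1.18 with all genes, -0.075 with genes of at least 5 FPKM and 0.068 with the opposite input. It was -0.087 with rescaling outside the mitochondrial genes, -2.35 with an equal arithmetic mean, -0.00048 with TMM and 0.084 with DESeq2 size factors. In the same order, without median centring, the hnRNPK median was -0.86, -3.76, -3.15, -0.65, -0.62, -0.79, -4.37, -0.83 and -0.58, and it ranged from -1.17 to -0.97 with either repeat alone. The members' distance below the median of all genes for hnRNPK went from -1.0 in the main calculation to -0.24 with TMM. In the input comparison 2 members, in place of 1, were beyond 1 with a pseudocount of 0.1, TMM or DESeq2 size factors. The share of all analysed genes beyond 1 was taken in the main calculation only, at 9.57%. Which members were called lower in hnRNPK depended on the library left out. With DESeq2 or its size factors 2 members were called lower, and DUSP6 did not pass. Of all genes tested, 1696 of 16520 were called lower by DESeq2, and 2321 of 16639 with its size factors in edgeR. IER3 did not pass without the filter on low counts, at 0.80.

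No paired analysis was possible because compared groups share fewer than 2 replicate numbers. The CBFB RIP and both inputs are single libraries, and depth does not limit the members other than DUSP5, IER5L and IER5, which had 74 to 221 counts in the hnRNPK RIPs.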
